A study of Danio rerio with 8 samples.

Results

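The genes described here are the hatching enzymes he1.1, he1.2 and he1.3, the cathepsin ctslb and the transcription factor klf17 of the zebrafish hatching gland. They were found through the RefSeq accessions that the array files give for each probe, and 14 of the 43603 zebrafish probes on each array belonged to these 5 genes. The list also held the name he2, which is no RefSeq symbol and which the gene table gives only as an older name of he1.3. Of the 14 probes, 12 were bright enough to be tested, being well above background on all arrays of 1 or more groups, and both remaining probes belonged to he1.3.

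Transcripts were measured in total RNA of pooled whole larvae aged 96 h, on Agilent arrays read in 1 color. The embryos had been exposed to ZnO NPs at 2.64 mg/L (3 arrays) or to ZnSO4 at 7.75 mg/L (3 arrays), each at its LC25 (a concentration lethal to part of the animals), or left untreated (control, 2 arrays). The labels give no strain, and nothing in the files says how many larvae of each pool had hatched. Each array stands for 1 labelled RNA sample of larvae kept together in 1 vessel.

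The hatching gland is a sheet of secretory cells at the front of the yolk sac and under the head. Its cells store zymogen granules and release hatching enzymes, which digest the egg envelope (chorion) so that the embryo can escape, and the gland is lost after hatching. The hatching enzymes are metalloproteases of the astacin family, which hold a zinc ion in their active site. The cathepsin L gene ctslb is a classical marker of the gland, and klf17 is needed for the gland to form.

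All 8 arrays were on 1 slide. By the file headers its array positions fall into 2 numbered blocks, called sides here, and the headers do not say what these blocks are. Side 1 held the control and ZnO NP replicates 1 and 2, and side 2 held ZnSO4 and ZnO NP replicate 3. ZnSO4 was never on the side of the control, and the ZnO NP arrays alone link them. Arrays had 77.5% to 85.8% of their probes well above background, no spot of the hatching gland probes was saturated, and the number of arrays limits the precision. The control arrays differed from each other more than any 2 arrays of a treatment did. The standard deviation of the difference over probes was 0.351 for the control pair and 0.242 to 0.296 for pairs within a treatment. The control arrays also differed in markers of other organs. The summed signal of 15 exocrine pancreas probes was 268 to 439 in ZnO NPs, 429 to 521 in ZnSO4, and 255 and 708 on control replicates 1 and 2. That of 9 intestine probes was 51.7 to 69.0 in ZnO NPs, 67.3 to 76.6 in ZnSO4, and 43.3 and 91.3 in the control. The summed signal of 32 periderm and epidermis probes was 1940 to 2010 in ZnO NPs, 1770 to 1920 in ZnSO4, and 2470 and 1830 in the control.

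Signals are given as normalised signals, the processed signal of a probe divided by the 75th percentile of all probes on that array, so a value of 1 marks a probe as bright as that percentile. Levels of different probes are not comparable. Where a gene has several tested probes, its level is their mean on the log2 scale. A probe was called when its fold change was at least 1.5 and its Benjamini-Hochberg adjusted p from limma, over all 34616 probes tested, was under 0.05.

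he1.1, he1.2 and ctslb had lower transcript levels in larvae exposed to either form of zinc than in the control, but none of these differences passed the adjusted test. In ZnO NPs the 8 probes of these genes were between 2.08-fold and 2.44-fold lower, and in ZnSO4 between 2.53-fold and 2.99-fold lower, and every treated array lay below both control arrays. Groups that did not overlap, with a fold of at least 1.5 lower, made up 1% of all probes for ZnO NPs and 1.09% for ZnSO4. he1.3, read from 1 of its 3 probes, did not share this pattern. Of the 3 klf17 probes, 1 had every treated array below both control arrays, with a fold under 1.5. Every treated array lay below both control arrays for 13.3% of all probes. limma called none of the 12 probes in either comparison with the control. Across all probes it called 0.0433% for ZnO NPs and 0.0231% for ZnSO4. At an unadjusted p under 0.05 with the same fold, 8 of the 12 were lower in ZnO NPs, where 0.953% of all probes were. In ZnSO4 8 were lower, where 1.01% of all probes were. These 8 are 4 probes of ctslb, 3 of he1.2 and 1 of he1.1, and probes of the same transcript are not independent of each other. The levels of he1.1 and he1.2 had a Pearson r of 0.999 over the 8 arrays. Whether their probes read separate transcripts was not tested. ZnSO4 never shared a side of the slide with the control. With the side as a block its log2 fold changes were smaller, at -0.70 for he1.1 and -0.75 to -0.62 for the he1.2 probes. Those of ctslb were at -1.27 to -1.08. In whole larvae, fewer gland cells and less RNA per gland cell cannot be told apart.

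**Figure D1:**
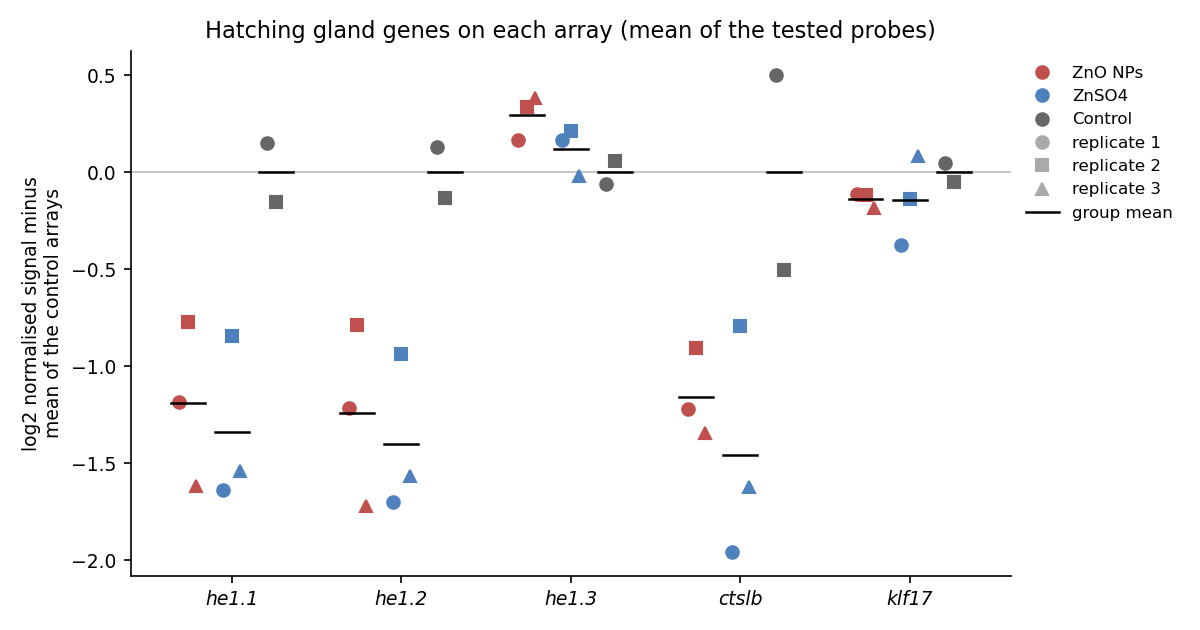
Level of each gene on each array, as the log2 normalised signal minus the mean of the control arrays (vertical axis), for ZnO NPs, ZnSO4 and control; points are arrays, their shape gives the replicate, and black bars are group means. For he1.1, he1.2 and ctslb all 6 treated arrays lie below both control arrays, whose replicates are far apart for ctslb. he1.3, read from 1 of its 3 probes, and klf17 lie between -0.375 and 0.381 on every array.

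he1.1 and he1.2, called he1a and he1b in older annotation, encode the enzymes that digest the chorion. They are neighbours on the chromosome with 0 annotated genes starting between them, and he1.3 comes next. The files hold no probe sequences, so whether a probe also binds the transcripts of a neighbouring copy was not tested.

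he1.1 (A_15_P175968, NM_001045174) had normalised signals of 1.07, 1.42 and 0.792 in ZnO NPs and of 0.781, 1.36 and 0.837 in ZnSO4, against 2.70 and 2.19 in the control. The highest treated array, ZnO NP replicate 2, was still below the lower control array. Against the control, limma gave ZnO NPs a log2 fold change of -1.19 ± 0.30 (standard error, as after each ± below) with an adjusted p of 0.110, and ZnSO4 one of -1.34 ± 0.30 with an adjusted p of 0.162. A change this far down was reached by 0.173% of all tested probes in ZnO NPs and by 0.142% in ZnSO4.

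he1.2 (NM_213635) has 3 probes, all well above background on all 8 arrays. The mean of the 3 had normalised signals of 2.14, 2.88 and 1.51 in ZnO NPs and of 1.53, 2.59 and 1.68 in ZnSO4, against 5.44 and 4.54 in the control. As for he1.1, replicate 2 was the highest array of each treatment, and the groups did not overlap. For the probe A_15_P663821 limma gave -1.285 ± 0.30 on the log2 scale in ZnO NPs (adjusted p = 0.107) and -1.45 ± 0.30 in ZnSO4 (adjusted p = 0.159). A_15_P660846 had -1.24 in ZnO NPs and -1.42 in ZnSO4, and A_15_P755886 had -1.2 in ZnO NPs and -1.34 in ZnSO4. These probes differed among themselves by less than the standard error of any of them.

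he1.3 (NM_001098188), the third copy, also encodes a hatching enzyme. Its tested probe, A_15_P111327, had normalised signals of 1.06, 1.19 and 1.23 in ZnO NPs and of 1.06, 1.097 and 0.934 in ZnSO4, against 0.908 and 0.986 in the control. The ZnO NP arrays lay above both control arrays, as for 23.7% of all probes, and the ZnSO4 arrays overlapped with them. The fitted log2 change was 0.295 ± 0.10 in ZnO NPs (limma, adjusted p = 0.147), with 16.4% of all tested probes at least this far up, and 0.12 in ZnSO4 (adjusted p = 0.547). Its other probes were near background. A_15_P628771 was well above it on 1 array, ZnO NP replicate 3. A_15_P663816 was between 2.67 and 5.49 in processed signal over the 8 arrays and well above background on none. The tested probe was between 986 and 1448 in processed signal, so the probes of this transcript disagree. Which of them measures he1.3 was not tested.

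ctslb (NM_131198) has 4 probes, all well above background on all 8 arrays. Their mean had normalised signals of 1.04, 1.297 and 0.959 in ZnO NPs and of 0.626, 1.402 and 0.789 in ZnSO4, against 3.45 and 1.72 in the control. The groups did not overlap, but the control arrays were far apart. Control replicate 1 was 1.96 to 2.09 times as bright as replicate 2 on these 4 probes, a ratio that at most 0.774% of all tested probes reached, whereas for he1.1 and he1.2 the ratio was 1.18 to 1.23. The same control arrays differed in the organ markers given above, and the part of that difference in the ctslb values was not tested. The probe with the largest change, A_15_P625806, was at -1.22 ± 0.39 on the log2 scale in ZnO NPs (limma, adjusted p = 0.132) and at -1.58 ± 0.39 in ZnSO4 (adjusted p = 0.165). Without control replicate 1 the mean log2 fold change over the ctslb probes was -0.65 in ZnO NPs and -0.955 in ZnSO4, and without control replicate 2 it was -1.66 in ZnO NPs and -1.96 in ZnSO4. For he1.2 the same means in ZnO NPs were -1.11 without control replicate 1 and -1.37 without control replicate 2.

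klf17 (NM_131723), also called biklf or klf4b, encodes a Krüppel-like zinc finger factor. Its mean over 3 dim probes had normalised signals of 0.0486, 0.0484 and 0.0463 in ZnO NPs and of 0.0405, 0.0477 and 0.0556 in ZnSO4, against 0.0543 and 0.0508 in the control. In this mean the ZnO NP arrays lay below both control arrays, which among single probes held for 18.2% of all. The ZnSO4 arrays overlapped with the control, with the highest of all 8 values on ZnSO4 replicate 3. The probes did not agree on this. A_15_P153666 was at -0.31 ± 0.10 on the log2 scale in ZnO NPs (limma, adjusted p = 0.134) and -0.32 ± 0.10 in ZnSO4 (adjusted p = 0.196). All treated arrays of this probe, at normalised signals of 0.0818 to 0.0944, lay below both control arrays, at 0.120 and 0.103. Such a separation was found for 13.3% of all probes. A_15_P625521 had -0.01 in ZnO NPs and -0.02 in ZnSO4. A_15_P132526, well above background on 7 of the 8 arrays, had -0.09 in each. The array where it was not was ZnSO4 replicate 1 (normalised signal 0.0158), and its highest value was on ZnSO4 replicate 3 (0.0346). The klf17 mean on ZnSO4 replicate 1 therefore rests partly on a reading not well above background.

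**Figure D2:**
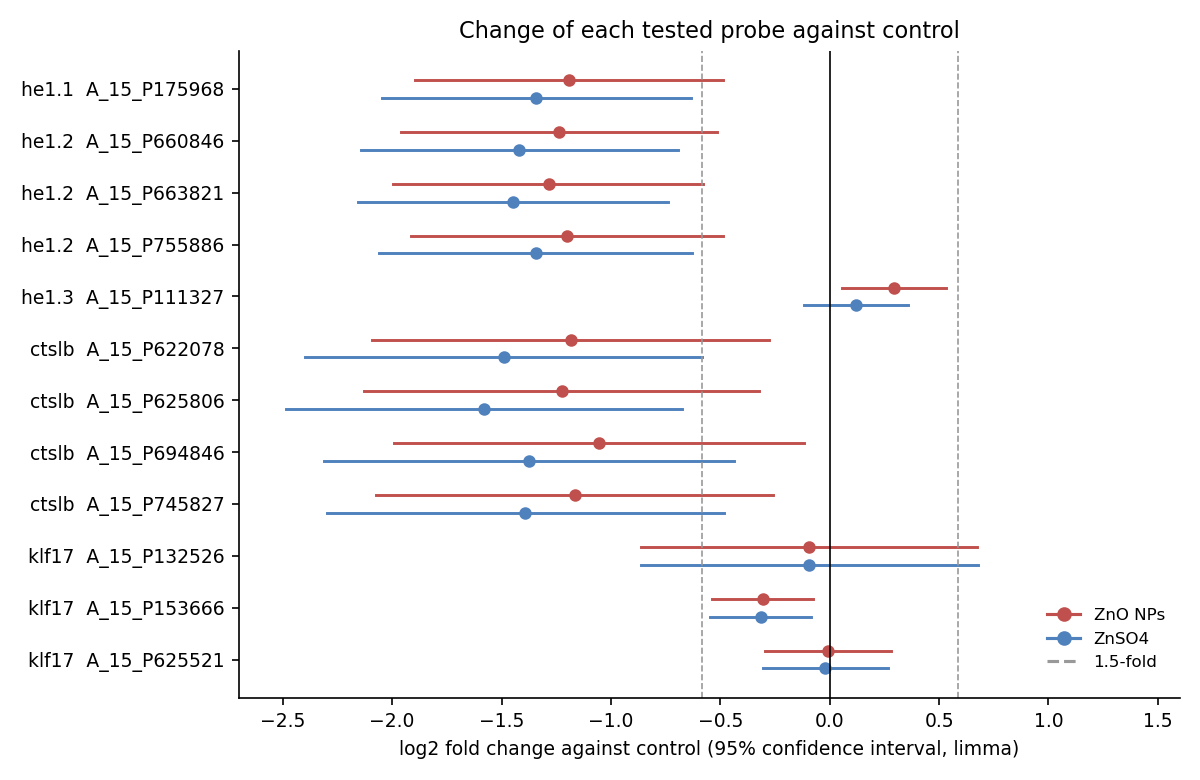
Log2 fold change of each of the 12 tested probes against control (horizontal axis), with 95% confidence intervals from limma, for ZnO NPs and ZnSO4; dashed lines mark a fold change of 1.5. The 8 probes of he1.1, he1.2 and ctslb lie between -1.58 and -1.05, and those of he1.3 and klf17 between -0.32 and 0.295.

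Values that take the side of the slide into account were smaller for he1.1 and he1.2, and by less for ctslb. Among the arrays of side 1 alone, ZnO NP replicates 1 and 2 against both control arrays, the log2 fold change of ZnO NPs was -0.98 for he1.1, -1.001 on average for the he1.2 probes and -1.06 for those of ctslb. Without a block, the change in ZnSO4 was -1.34 for he1.1, -1.403 for he1.2 and -1.46 for ctslb. With the side as a block in the fit of all arrays, it was -0.70 for he1.1, -0.68 for he1.2 and -1.18 for ctslb. The adjusted p from limma in the fit with the block was 0.686 to 0.718 for the probes of these genes, and none was called. That fit links ZnSO4 to the control through the ZnO NP arrays alone, since no other group lay on both sides. Of these, only replicate 3 lay on side 2, so the size of the block rests on 1 array there. It was the lowest ZnO NP array for he1.1 (0.792), he1.2 (1.51) and ctslb (0.959).

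The mean of both treatments was also set against the control, which uses all 8 arrays in 1 contrast. In this contrast all 8 probes of he1.1, he1.2 and ctslb were at least 2.32-fold and at most 2.64-fold lower. For each of them 6 of 6 treated arrays lay below both control arrays, some by less than these folds. The adjusted p from limma was 0.0847 to 0.0863 for he1.1 and he1.2, and 0.0984 to 0.117 for ctslb, so none of the 12 probes was called, while 0.0722% of all probes were. At an unadjusted p with the fold, 8 were lower, beside 0.893% of all probes. Groups that did not overlap, with a fold of at least 1.5 lower, were found for 8 of the 12 probes and for 0.702% of all probes. As above, several of these 8 probes read the same transcript, and whether those of he1.1 and he1.2 read separate transcripts was not tested. When probes were averaged per gene before the fit, over 12124 genes, he1.2 was 2.50-fold lower (adjusted p = 0.0637), he1.1 2.41-fold lower (adjusted p = 0.0660) and ctslb 2.48-fold lower (adjusted p = 0.0828). In that fit he1.3 was 1.15-fold higher (adjusted p = 0.177) and klf17 1.1-fold lower (adjusted p = 0.436). With all arrays ctslb was not called, and its values depended on the control arrays. Without control replicate 1 its 4 probes were at -0.92 to -0.68 with adjusted p of 0.449 to 0.556 (limma), and 71 of 36858 probes were called. Without control replicate 2 they were at -1.89 to -1.74 with adjusted p of 0.0406 to 0.0469 and were called, among 1516 of 34678 probes. With an intensity trend in the variance model he1.1 and the 3 he1.2 probes were called, among 218 of all probes in place of 25. When the fit allowed for the slide side, the changes were smaller and none of the 8 probes was called. On the log2 scale he1.1 was then at -0.84, the he1.2 probes at -0.90 to -0.79 and those of ctslb at -1.20 to -1.06. Their adjusted p from limma was 0.35 to 0.421. As above, the size of that block rests on 1 array of side 2. Both single comparisons share the 2 control arrays and are not independent of each other or of the contrast of both treatments.

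The 2 forms of zinc were compared with each other, ZnO NPs against ZnSO4, at nominal concentrations of compound that differ. By the study, the LC25 values expressed as measured zinc were similar, with wide confidence intervals. They came from its toxicity test in well plates, whereas the embryos for RNA were exposed in beakers. limma called none of the 12 probes, as it called 0% of all probes. At an unadjusted p with the fold, 0 of the 12 were lower, where 0.277% of all probes were, and 0 were higher, where 0.309% were. In the fit of genes he1.1 was 1.11-fold higher in ZnO NPs, with a 95% confidence interval of 0.720-fold to 1.71-fold. he1.2 was 1.12-fold higher (0.723-fold to 1.73-fold), he1.3 1.13-fold higher (0.979-fold to 1.3-fold) and ctslb 1.23-fold higher (0.705-fold to 2.16-fold). klf17 had a log2 fold change of 0.01, with an interval of 0.840-fold to 1.2-fold. These intervals include differences in both directions. Within side 2 of the slide, ZnO NP replicate 3 against the 3 ZnSO4 arrays, the log2 difference was -0.28 for he1.1, -0.32 for he1.2 and 0.115 for ctslb.

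The levels of he1.1, he1.2 and ctslb varied together from array to array. That of he1.3, read from 1 of its 3 probes, did not follow them. Over the 8 arrays the log2 levels of he1.1 and he1.2 had a Pearson r of 1.00, those of he1.1 and ctslb 0.94, and those of he1.2 and ctslb 0.93. After the mean of each group was taken out, r was 0.995 for he1.1 with he1.2, 0.83 for he1.1 with ctslb and 0.79 for he1.2 with ctslb. Within each treatment replicate 2 had the highest level of all 3 genes. he1.3 had an r of -0.46 with he1.2 and of -0.39 with ctslb, which came to 0.05 and 0.02 after the group means were taken out. For klf17, r was 0.51 with he1.2 and 0.55 with ctslb, and 0.26 and 0.37 after the group means were taken out. These correlations are descriptions over 8 arrays, which share 1 slide.

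**Figure D3:**
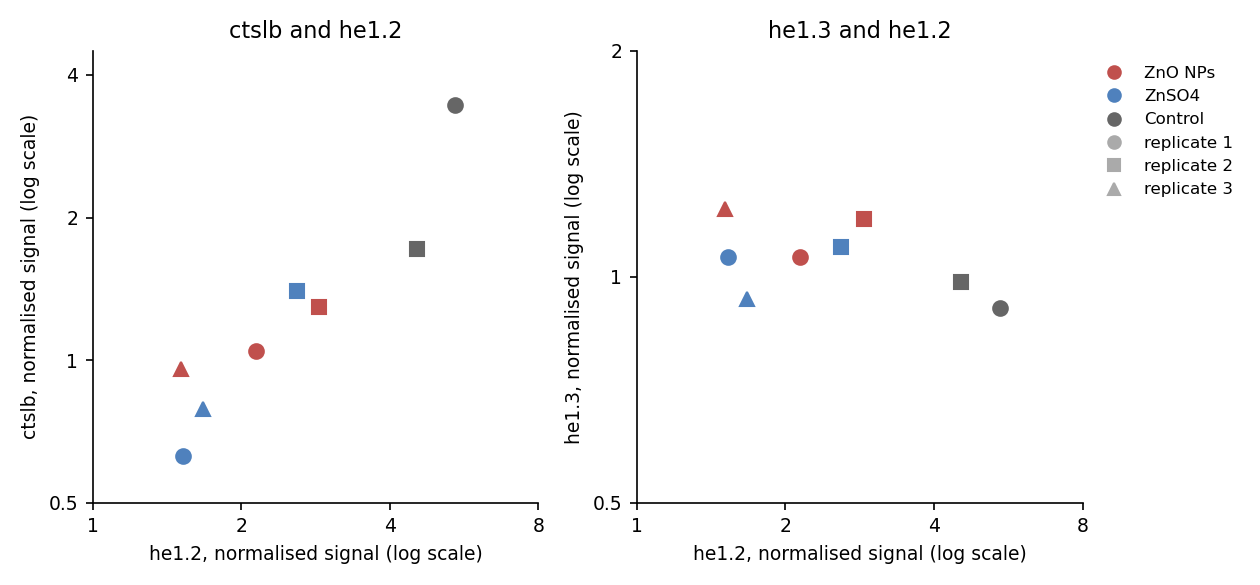
Normalised signal of ctslb (left, vertical axis) and of he1.3 (right, vertical axis) against that of he1.2 (horizontal axis) on each of the 8 arrays, on log scales, for ZnO NPs, ZnSO4 and control; the marker shape gives the replicate. ctslb follows he1.2 across the arrays (r = 0.93), with both control arrays at the upper right. he1.3, read from 1 of its 3 probes, does not (r = -0.46).

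Outside these genes, the pattern most like the mean of the 5 tested he1 probes over the 8 arrays was found for hsbp1a (r = 0.99), nalf2 (0.97), ubr7 (0.97), npm1a (0.96) and chchd6a (0.96). That mean includes the he1.3 probe. These genes were picked for the highest r among all other named genes tested, so a high r follows from the choice. Their changes in the mean of both treatments were far smaller, at -0.30 for npm1a (adjusted p = 0.0984 from limma) and between -0.20 and -0.16 for the others. For npm1a the normalised signals were 1.08, 1.16 and 1.05 in ZnO NPs and 1.07, 1.13 and 1.02 in ZnSO4, against 1.4 and 1.27 in the control.

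Other genes of hatching and of the same enzyme families were read from lists, and limma called 0 probes of any list in any of the comparisons. Of the genes that specify the gland or serve secretion, such as prdm1a, foxa3, xbp1, cd63 and agr2, 31 probes of 12 genes were tested. Their median log2 fold change in the mean of both treatments was 0.05, beside 0.03 for all probes tested and -1.27 for the 12 hatching gland probes. The most negative probe belonged to sec23b, a subunit of the vesicle coat that carries secreted proteins (-0.325, adjusted p = 0.323), whose other probe was at 0.14. The most positive belonged to sec24d of the same coat (0.78, adjusted p = 0.432). The normalised signal of this probe was 0.198 on ZnSO4 replicate 1 and 0.0299 to 0.0510 on the other 7 arrays. The other sec24d probes were at 0.27, 0.49 and 0.30 (limma, adjusted p of 0.136 to 0.201). At an unadjusted p under 0.05 with the fold, each list had 0 to 2 probes lower or higher in each comparison. In the mean of both treatments these were 1 probe each of the other astacins, the egg envelope genes and the periderm markers, all higher, where 1.45% of all probes were higher and 0.893% lower.

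Of the other astacin metalloproteases, 12 probes of 8 genes were tested, with a median of 0.00. bmp1a, a procollagen C-proteinase, was the most positive (A_15_P737551, 0.82, standard error 0.13, adjusted p = 0.0749), at 0.85 in ZnO NPs and 0.78 in ZnSO4, and its other probe had 0.53. The most negative was mep1a.2, a meprin subunit, at -0.44 (standard error 0.76, adjusted p = 0.746). Of the other cathepsins, 28 probes of 13 genes were tested, with a median of 0.05. ctsla, the close relative of ctslb, was the most negative at -0.29 (adjusted p = 0.400), and ctsc, cathepsin C, the most positive at 0.47 (adjusted p = 0.0984).

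Of the egg envelope (zona pellucida) genes, 14 of 43 probes were tested, with a median of -0.21. The most positive was the zp3a.2 probe A_15_P113816 at 1.08 (adjusted p = 0.112). The most negative was another zp3a.2 probe, A_15_P538682, which was well above background on 3 of the 8 arrays, so no size is given for it. For the prolactin axis 2 probes were tested, with prl at -0.46 (adjusted p = 0.309) and prlrb, a prolactin receptor, at -0.23 (adjusted p = 0.312). Among the markers of other cell types the medians were -0.12 for periderm and epidermis, 0.02 for the exocrine pancreas and 0.17 for the intestine. krt17, a keratin, was the most positive epidermal probe at 0.88 (adjusted p = 0.0847), with 0.64 in ZnO NPs and 1.11 in ZnSO4, but the other krt17 probe, A_15_P721886, was at -0.20 (adjusted p = 0.450). The most negative was cyt1, a type I keratin, at -0.28 (adjusted p = 0.278). In the pancreas list they were cel.1 at 0.45 (adjusted p = 0.522) and ela2l at -0.37 (adjusted p = 0.635), and in the intestine list anpepb.1 at 0.27 (adjusted p = 0.574) and fabp2 at 0.00 (adjusted p = 0.996).

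**Figure D4:**
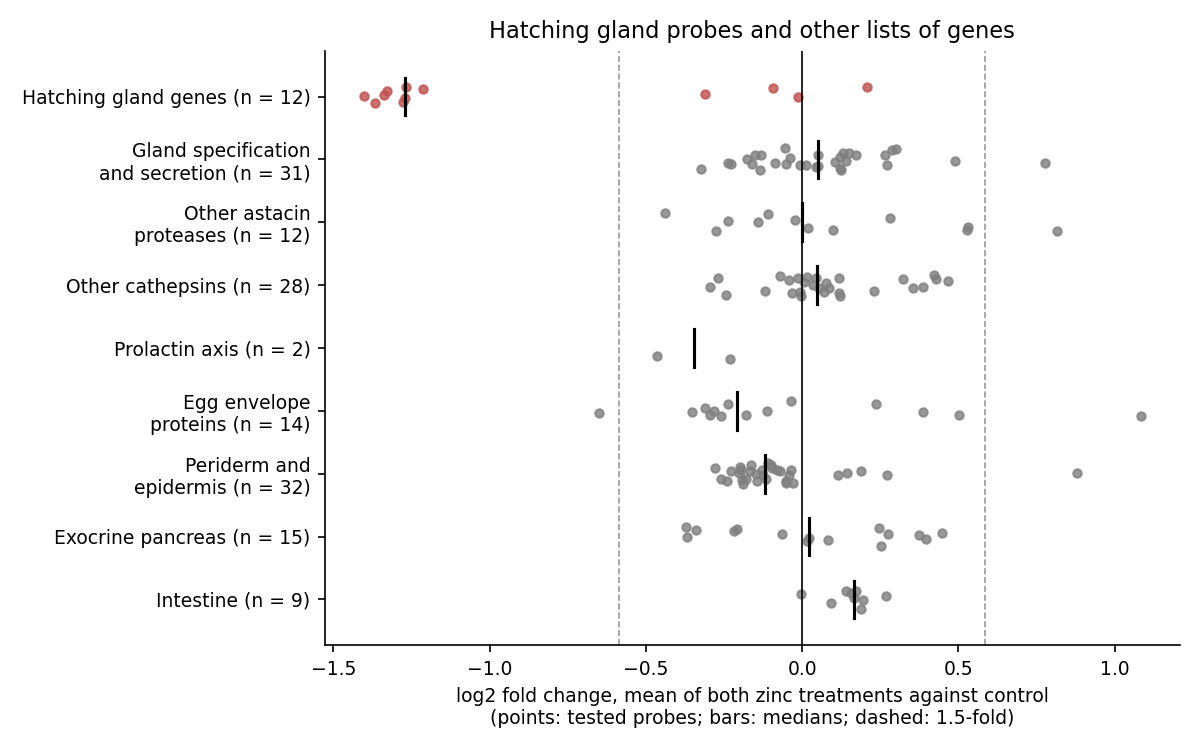
Log2 fold change in the mean of both zinc treatments against control (horizontal axis) of each tested probe, by list of genes; bars are medians and dashed lines mark a fold change of 1.5. The 8 probes of he1.1, he1.2 and ctslb lie at or below -1.21, and the egg envelope probe left of the lower dashed line was well above background on 3 of the 8 arrays.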

How the data were processed

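The authors deposited 1 Agilent Feature Extraction file per array, made with version 10.10.1.1 by the file headers. Per the file headers, each of 62976 spots has an intensity with the background subtracted and spatial trends removed (processed signal), raw median intensities and 0/1 marks, which are other values. A further deposited table holds log2 values, scaled per array to its 75th percentile and then centered per probe. It was within 0.02 of values computed from the scanner files for 99.9% of entries.

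Outlier and control spots were left out, spots of a probe averaged as log2 processed signals, and each array shifted by its 75th percentile. A probe counted as well above background on an array when a share of at least 0.5 of its spots were. Of 43603 probes, 34617 passed the filter and 34616 were tested with limma 3.58.1 in R 4.3.3, with all 3 groups in 1 fit, 5 residual and 2.42 prior degrees of freedom. By the study's methods the treatments were replicated and their RNA samples collected independently, and separate clutches are not mentioned, so p-values measure the spread between these samples. The script was tested on simulated data. Probes were named through RefSeq accessions in a table of assembly GRCz12tu (25854 probes). Named genes were the members and, per list, the most positive and most negative probe in the mean of both treatments, and the 5 genes most like the he1 probes. Members and lists were chosen with earlier results of these data known. Alternatives changed scaling, background correction, filter, outlier spots, test, threshold, blocks and arrays; values within 1 side of the slide were added after seeing the data.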

Additional observations from a re-analysis of the deposited data

Results flagged for a closer look

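One signal lay outside the tested probes. The he1.3 probe A_15_P628771 had a processed signal of 120 on ZnO NP replicate 3, where it was well above background, and of 2.96 and 5.09 on ZnO NP replicates 1 and 2. It read 5.28, 5.14 and 9.25 in ZnSO4 and 7.12 on each control array, well above background on none of these 5 arrays. Since 1 of 3 ZnO NP arrays measured it, no fold is given, and no test was run on this probe. On the same array the tested he1.3 probe, A_15_P111327, read 1.23 in normalised signal, within 1.16-fold of both other ZnO NP arrays.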

How the results depend on the processing

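None of the 12 probes was called by limma in any comparison, and 26 alternatives were tried. With an intensity trend in the variance model, 4 probes (he1.1 and he1.2) were called lower in the mean of both treatments, and 218 of all probes in place of 25. When each array was left out in turn, the count for that comparison ranged from 0 to 4 and was 0 in the others; the 4 were the ctslb probes, called without control replicate 2, when 1516 of all probes were called. ANOVA with unadjusted LSD comparisons gave 5 lower probes in ZnO NPs, ZnSO4 and both against the control, among 507, 374 and 398 of 34610 probes called in either direction. Unadjusted p-values with the fold gave 8 in each, and so did the fold alone, which 1.23%, 1.33% and 1.07% of all probes passed in that direction. For he1.1, he1.2 and ctslb the direction against the control held under every alternative. Changes of direction concerned uncalled values. In ZnO NPs against ZnSO4, with a block for the slide side and likewise within side 2, he1.1 was at -0.28, he1.2 at -0.32 and klf17 at -0.039. Leaving out single arrays gave -0.06 to 0.40 for he1.1, -0.065 to 0.40 for he1.2 and -0.11 to 0.12 for klf17, and klf17 was at -0.017 with median scaling and -0.044 with quantile normalization. klf17 in ZnO NPs was at 0.001 with normexp, and he1.3 in ZnSO4 at -0.009 with the side block. The causes were not tested. With the replicate number as a block, 0 probes were called and he1.1 was at -1.035 in ZnO NPs and -1.18 in ZnSO4. Same-numbered arrays deviated with an r of -0.07 to 0.15 over 7 pairs, against -0.19 to 0.12 over 14 other pairs. These ranges overlap, and the deviations of the 2 control arrays mirror each other. Whether same-numbered arrays share more than a number therefore cannot be told from them. With 2 control arrays, 1 of them could move a ctslb value. In ZnO NPs its log2 fold change went from -1.16 to -0.65 without control replicate 1 and to -1.66 without control replicate 2. Dim probes (those of klf17 and the untested ones of he1.3) are limited by their signal over background.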
